A study of Homo sapiens with 10 samples.

Results

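AGPAT3 and 9 further genes of phosphatidic acid and cardiolipin synthesis were followed in RS4;11 leukemia cells with and without acquired insensitivity to venetoclax (VEN). AGPAT3 was chosen by its higher counts in VENins lines of these same libraries, so its values are given as a description and without a test. The other 9 genes, AGPAT1, AGPAT2, AGPAT4, AGPAT5, LCLAT1, GPAM, CRLS1, PTPMT1 and PGS1, were added as paralogues of AGPAT3 or as enzymes of the same route. These 10 genes stand among 63677 gene identifiers, and 9 of the 10 passed the filter on low counts that left 16756 genes for testing.

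RS4;11 is an established line of BCP-ALL, the acute lymphoblastic leukemia of B-cell precursors, with a rearranged KMT2A gene. VEN inhibits the anti-apoptotic protein BCL-2. The 5 VENins lines had been cultured with VEN at stepwise raised concentrations, were then kept in VEN, and were freed of it by washing before analysis. The 5 VENsens lines were carried alongside with the solvent DMSO alone. All 10 lines derive from 1 parental cell line, each is represented by 1 RNA library, and the files hold 20631907 to 28323643 counts on genes per library. The p-values below therefore measure the spread between these lines.

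Phosphatidic acid is the common precursor of triacylglycerol and of the phospholipids. It is made from glycerol 3-phosphate by adding a fatty acid chain at each of the free positions, first by a glycerol 3-phosphate acyltransferase such as GPAM and then by a lysophosphatidic acid acyltransferase of the AGPAT family. In mitochondria, phosphatidic acid is activated to CDP-diacylglycerol, turned into phosphatidylglycerol phosphate by PGS1, dephosphorylated by PTPMT1 and joined to a further CDP-diacylglycerol by CRLS1 to give cardiolipin, the phospholipid typical of the inner mitochondrial membrane.

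Over all genes, VENins line 5 stood apart from its group. Its 4 pairs with other VENins lines differed by a chi-square over degrees of freedom of 13.2 to 14.2, where 1 is counting error alone, against 4.29 to 9.65 for the other VENins pairs and 1.92 to 9.72 for VENsens pairs. For some of the values that rest on this line, the value without it or the range of the other lines is also given. Without the lines numbered 5 there were 9 genes called, against 33 with all lines.

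The cell type was then checked. Markers of B-cell precursors were abundant, with a summed level over 9 genes of 3492 ± 41.4 CPM (counts scaled to 1e6 per library; SD, n = 5) in the VENsens group and 3483 ± 178 CPM in the VENins group. The sum was 3790 CPM in VENins line 5 and 3334 to 3465 CPM in the other VENins lines. PAX5 was the most abundant of these markers in VENsens lines, and it was the only marker of any list that was called, lower in VENins lines (783 ± 42.9 against 631 ± 34.7 CPM; log2 fold change -0.31, edgeR adjusted p = 0.0272). These markers did not share a direction, with log2 fold changes of 0.24 for CD79B, 0.17 for IGLL1, 0.14 for VPREB1, 0.08 for CD79A and 0.06 for EBF1, and of -0.32 for RAG1. DNTT varied most relative to its mean, from 1.08 to 27.3 CPM, with the highest value in VENins line 4. Its means were 5.02 ± 2.25 CPM for VENsens and 7.02 ± 11.4 CPM for VENins lines, but 1.96 ± 1.01 CPM for VENins lines without line 4, and the fitted log2 fold change was -0.36 (SE 0.52). The genes HOXA9, MEIS1 and FLT3, which are typically high in KMT2A-rearranged leukemia, summed to 564 ± 22.3 and 556 ± 14.3 CPM. T cell markers summed to 0.918 and 0.842 CPM, with CD8A at 0 in every library and CD3E carrying nearly all of it. Myeloid markers summed to 9.90 ± 1.42 and 11.2 ± 0.960 CPM, mostly CSF1R (8.77 and 10.2 CPM). The other myeloid markers were at or below 0.510 CPM on average and had lower means in VENins lines, at 0.483 and 0.344 CPM for LYZ, 0.510 and 0.457 CPM for CD14, and 0.142 and 0.136 CPM for MPO. The hemoglobin genes HBB and HBA1, markers of erythroid cells, had at most 1 count in any library, with HBA1 at 0 in all of them. In bulk RNA, fewer cells that express a gene and less RNA per cell cannot be told apart.

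AGPAT3 (ENSG00000160216) lies on chromosome 21 at 43865186 to 43986536 (GRCh38, GENCODE 29), on the forward strand, and encodes an acyltransferase known for placing polyunsaturated chains on lysophosphatidic acid. In VENsens lines 1 to 5 it had 17, 2, 9, 10 and 13 counts, which is 0.707, 0.0969, 0.317, 0.433 and 0.519 CPM. In VENins lines 1 to 5 it had 18, 35, 22, 129 and 47 counts, or 0.846, 1.43, 0.895, 5.07 and 2.05 CPM. The groups did not overlap, but the gap between the highest VENsens line and the lowest VENins line, both numbered 1, was 17 against 18 counts. The gene was thus near the lower limit of detection in VENsens lines, and in VENins lines it ranged from barely above that level to a clear signal in line 4.

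The mean of the 5 VENsens lines was 0.415 ± 0.228 CPM (SD), and that of the 5 VENins lines was 2.06 ± 1.75 CPM. Line 4 alone held 51.4% of the 251 counts of the VENins group, and without it the VENins mean was 1.30 ± 0.562 CPM. Exact Poisson 95% intervals, which cover counting error only, reached from 0.501 to 1.34 CPM in VENins line 1 and from 4.23 to 6.02 CPM in VENins line 4, so these lines differed by more than counting error. The same held within the VENsens group, where the interval of line 2 ended at 0.350 CPM and that of line 1 began at 0.412 CPM. Between lines of the same number, VENins over VENsens CPM ratios were 1.20, 14.8, 2.82, 11.7 and 3.95 for lines 1 to 5, where the numbers pair the lines by name only. The fitted log2 fold change was 2.15 (SE 0.36), the highest of all 16756 tested genes. Leaving out the lines numbered 4 lowered it to 1.63, and leaving out those numbered 1 raised it to 2.65.

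**Figure D1:**
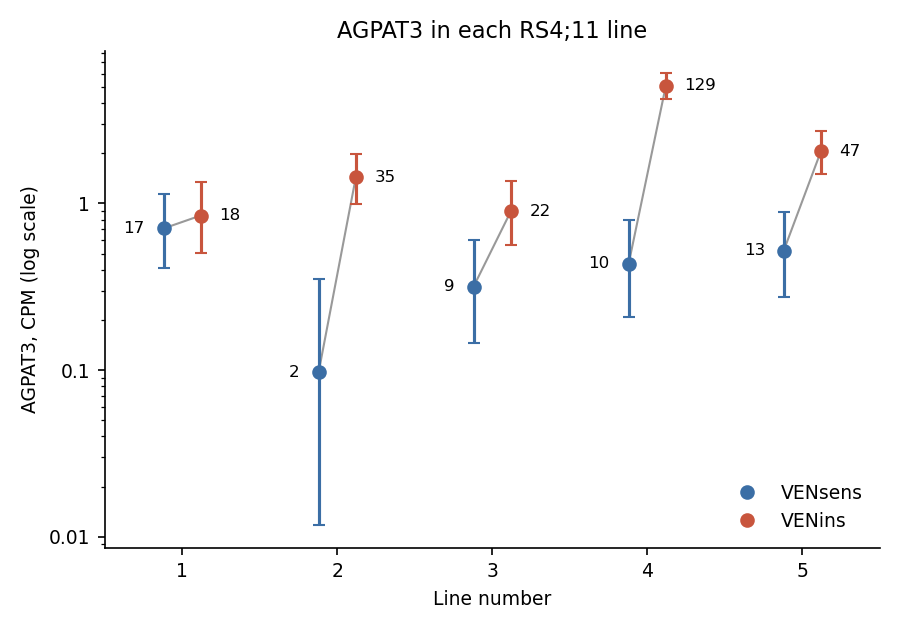
AGPAT3 level in CPM on a log axis for each line number, VENsens in blue and VENins in red, with exact Poisson 95% intervals as error bars and the count beside each point; grey lines join equal numbers. VENins line 4, with 129 counts, stands above all other lines, and the lines numbered 1 are nearly level at 17 and 18 counts.

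AGPAT3 shares no long stretch with its paralogues, and none of the 11675 different stretches of 75 bases in its annotated transcripts occurs in an annotated transcript of another gene. To show how part of the family is related, the coding stretch around the acyltransferase motif NHX4D is given for 5 members with its flanking codons. AGPAT5 was not included. The sequences are from GENCODE 29 transcripts (GRCh38), written 5′ to 3′ on the coding strand, and capitals mark the codons of the asparagine, histidine and aspartate of the motif.
AGPAT3: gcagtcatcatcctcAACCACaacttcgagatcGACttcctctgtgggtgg
AGPAT4: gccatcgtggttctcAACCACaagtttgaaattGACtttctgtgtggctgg
LCLAT1: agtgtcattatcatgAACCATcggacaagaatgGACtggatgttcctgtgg
AGPAT2: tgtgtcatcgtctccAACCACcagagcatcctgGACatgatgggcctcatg
AGPAT1: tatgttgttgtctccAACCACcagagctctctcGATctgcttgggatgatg
In AGPAT3 the stretch lies in an exon at chr21:43968035-43968085. Of its 51 bases, 38 (74.5%) are the same in AGPAT4, against 26 in LCLAT1, 25 in AGPAT2 and 24 in AGPAT1. The motif begins at codon 95 in both AGPAT3 and AGPAT4, whose coding sequences have 376 and 378 codons.

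Per kilobase of exon, AGPAT3 had the lowest level of the 9 measured genes in either group, at 0.0367 ± 0.0201 CPM per kb among VENsens lines and 0.182 ± 0.155 CPM per kb among VENins lines. AGPAT5, an acyltransferase found in mitochondria, had the highest mean level, at 39.3 ± 1.74 and 38.9 ± 1.08 CPM per kb. AGPAT2, an acyltransferase of the endoplasmic reticulum, followed at 28.2 ± 3.15 and 30.4 ± 6.07 CPM per kb. The ranges of these top genes were apart in VENsens lines and overlapped in VENins lines, where AGPAT2 reached 40.9 CPM per kb in line 5. LCLAT1 and CRLS1 came next and overlapped each other in both groups, at 9.45 ± 0.618 and 9.27 ± 0.444 CPM per kb in VENsens lines. PGS1 (5.43 ± 0.191), PTPMT1 (3.57 ± 0.212), AGPAT4 (1.84 ± 0.168) and GPAM (1.39 ± 0.138 CPM per kb) followed in VENsens lines with ranges that did not touch. In VENins lines the order was the same, and AGPAT4 and GPAM overlapped. With the longest transcript as the length, GPAM and AGPAT4 changed places in both groups and overlapped in both. The place of PTPMT1 is uncertain, since 72.5% of its exon bases, all counted in its length, lie within exons of other genes.

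**Figure D2:**
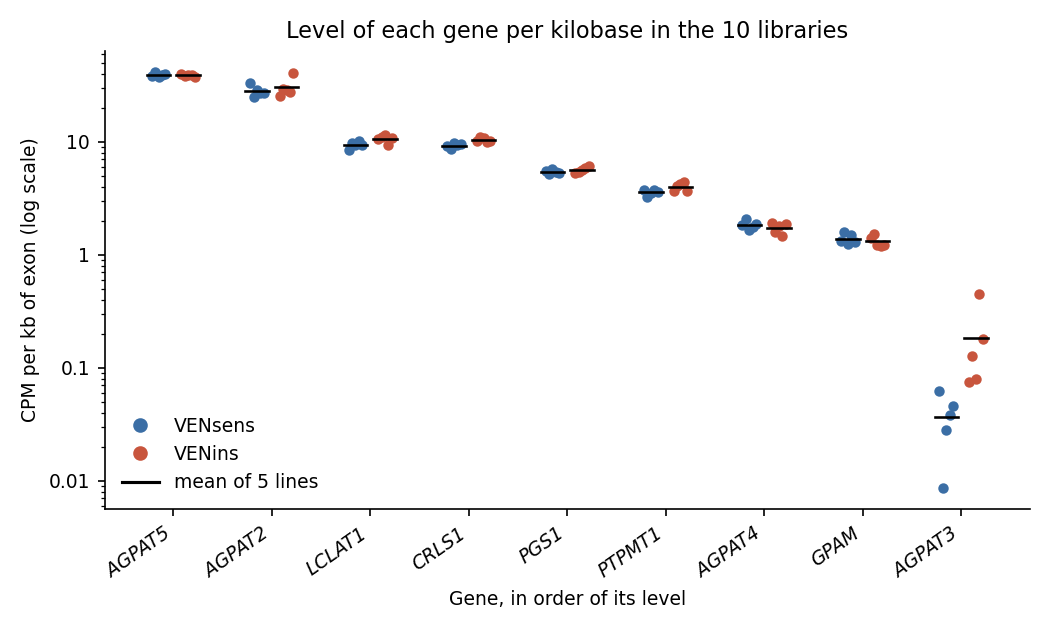
Level of each measured gene in CPM per kilobase of exon, on a log axis, for 5 VENsens (blue) and 5 VENins (red) libraries; black bars are means. AGPAT3 is lowest in both groups, and its VENins points at 0.0749 to 0.449 CPM per kb stay below those of GPAM, which begin at 1.20. The place of PTPMT1 is uncertain, since most of its exon bases are shared with other genes.

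AGPAT1, an acyltransferase of the endoplasmic reticulum, was listed at 0 in all 10 libraries. Within 500 kb on each side of it on chromosome 6, 47 of 56 protein-coding genes were also at 0 in every library, and 5 more had at most 9 counts. The genes at 0 include VARS, the valyl-tRNA synthetase, and LSM2, a splicing factor subunit, which cells in general use. The 4 genes of the window with 10 or more counts in any library were HLA-DRA, HLA-DQB1, HLA-DQA1 and HLA-DRB5, which were named after their values were seen. The value of AGPAT1 is therefore not read as a level, no fold change is given, and the reason for the zeros was not tested.

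The summed level of the 5 measured acyltransferases of the family (AGPAT2, AGPAT3, AGPAT4, AGPAT5 and LCLAT1) was 78.8 ± 1.65 CPM per kb among VENsens lines and 81.9 ± 5.38 CPM per kb among VENins lines. The ranges overlapped, at 77.3 to 81.6 and 78.2 to 91.2 CPM per kb, and without VENins line 5 the VENins mean was 79.5 ± 1.504 CPM per kb. AGPAT3 made up 0.0463% ± 0.0246 of this sum in VENsens lines and 0.225% ± 0.200 in VENins lines, with the highest share, 0.574%, in VENins line 4. AGPAT5 held 49.9% ± 2.57 and 47.7% ± 4.05 of the sum, and AGPAT2 35.7% ± 3.41 and 36.9% ± 4.70. VENins line 5 stood apart in both, with AGPAT5 at 41.0% and AGPAT2 at 44.9%. The other VENins lines had AGPAT5 at 47.5% to 51.3% and AGPAT2 at 32.5% to 36.6%. The higher VENins mean of the AGPAT2 share thus rested on line 5. Even at its highest, AGPAT3 transcript was thus a small fraction of the measured family, of which AGPAT1 is not part here.

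To test whether the remaining genes differed between VENins and VENsens lines, they were read from an edgeR quasi-likelihood fit over all 16756 genes with the line number in the model. None of the 8 tested genes other than AGPAT3 had an adjusted p under 0.05, the rule for a call, against 33 of all tested genes (0.197%). The same 0 of 8 was found with DESeq2 and the line number in the model, where 1.69% of genes were called. At an unadjusted p under 0.05, LCLAT1 and CRLS1 were higher in VENins lines and none was lower, and of all tested genes 7.79% were higher and 8.38% lower by that rule. Groups did not overlap for CRLS1, which was higher in VENins lines, and for no other gene of the 8, while of all tested genes 2.36% were higher and 2.30% lower without overlap. The median log2 fold change of the 8 genes was 0.08, beside 0.00 (0.00348) for all tested genes.

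GPAM, the mitochondrial enzyme of the first acylation, had 12.3 to 15.5 CPM in VENsens and 11.7 to 14.96 CPM in VENins lines. Its log2 fold change was -0.08 (SE 0.08; 95% interval -0.26 to 0.09), and it was higher in 1 of 5 VENins lines than in the VENsens line of the same number. Without the lines numbered 4 the log2 fold change was -0.03, and with the trend on exon length removed it was -0.02.

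LCLAT1, which acylates lysocardiolipin and other lysophospholipids, was at 64.3, 73.3, 69.9, 76.9 and 70.7 CPM in VENsens lines 1 to 5 and at 80.0, 83.0, 87.3, 69.98 and 81.4 CPM in VENins lines 1 to 5. VENins lines 1, 2, 3 and 5 lay above all VENsens lines, and VENins line 4 lay among the VENsens lines. The log2 fold change was 0.18 (SE 0.07; 95% interval 0.03 to 0.32; edgeR adjusted p = 0.213), higher in 4 of 5 lines.

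AGPAT2 was at 59.8, 44.7, 51.5, 48.9 and 48.6 CPM in VENsens lines 1 to 5 and at 45.9, 53.1, 51.3, 49.6 and 73.6 CPM in VENins lines 1 to 5. The groups overlapped widely, with VENins line 5 alone above all VENsens lines, and without it the VENins mean was 49.97 ± 3.09 CPM. Its log2 fold change was 0.10 (SE 0.10; 95% interval -0.12 to 0.31; edgeR adjusted p = 0.681), and without the lines numbered 5 it turned to -0.03, against 0.22 without those numbered 1.

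AGPAT5 ranged from 177 to 196 CPM over VENsens lines and from 175 to 188 CPM over VENins lines. It had the narrowest interval of the 8 genes (log2 fold change -0.02, SE 0.05; 95% interval -0.13 to 0.10), and its sign changed when the lines numbered 2 or 5 were left out. AGPAT4 was the closest by sequence of the paralogues whose motif stretch is given above, where AGPAT5 was not compared. It ranged from 14.4 to 18.4 CPM over VENsens lines and from 12.8 to 16.8 CPM over VENins lines. Its log2 fold change was -0.09 (SE 0.09; 95% interval -0.27 to 0.10), with values of -0.0078 without the lines numbered 2, -0.04 without those numbered 4, -0.15 without those numbered 3 and -0.03 with the trend on exon length removed. None of the measured paralogues had a change near the size of that in AGPAT3. AGPAT3 was picked for its rise and had the highest log2 fold change of all 16756 tested genes. This contrast in size thus came with the choice, and the difference between genes was not tested.

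Of the enzymes that lead to cardiolipin, PGS1 makes phosphatidylglycerol phosphate and ranged from 25.8 to 28.3 CPM over VENsens lines and from 26.5 to 30.1 CPM over VENins lines. Its log2 fold change was 0.06 (SE 0.07; 95% interval -0.08 to 0.20), and 0.03 without the lines numbered 5. PTPMT1, the phosphatase of the next step, ranged from 8.91 to 10.4 CPM over VENsens lines and from 9.98 to 12.1 CPM over VENins lines, with a log2 fold change of 0.16 (SE 0.09; 95% interval -0.03 to 0.35) and 4 of 5 lines higher. Its values are uncertain, since 72.5% of its annotated exon bases lie within exons of 3 other genes, KBTBD4 foremost, and reads from there cannot be told apart in libraries without strand information.

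CRLS1, the cardiolipin synthase, was at 49.1, 46.0, 52.1, 50.5 and 51.4 CPM in VENsens lines 1 to 5 and at 54.9, 59.1, 57.7, 53.7 and 55.2 CPM in VENins lines 1 to 5. The lowest VENins value was above the highest VENsens value by a small margin. The means were 49.8 ± 2.39 and 56.1 ± 2.22 CPM (SD, n = 5), and the log2 fold change was 0.17 (SE 0.06; 95% interval 0.05 to 0.30), higher in 5 of 5 lines, with an edgeR adjusted p of 0.180. DESeq2 without the line number called CRLS1 (adjusted p = 0.0310) among the 6.05% of genes that it called. Over the alternatives the adjusted p of CRLS1 lay between 0.0310 and 0.601, and no other alternative called it.

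**Figure D3:**
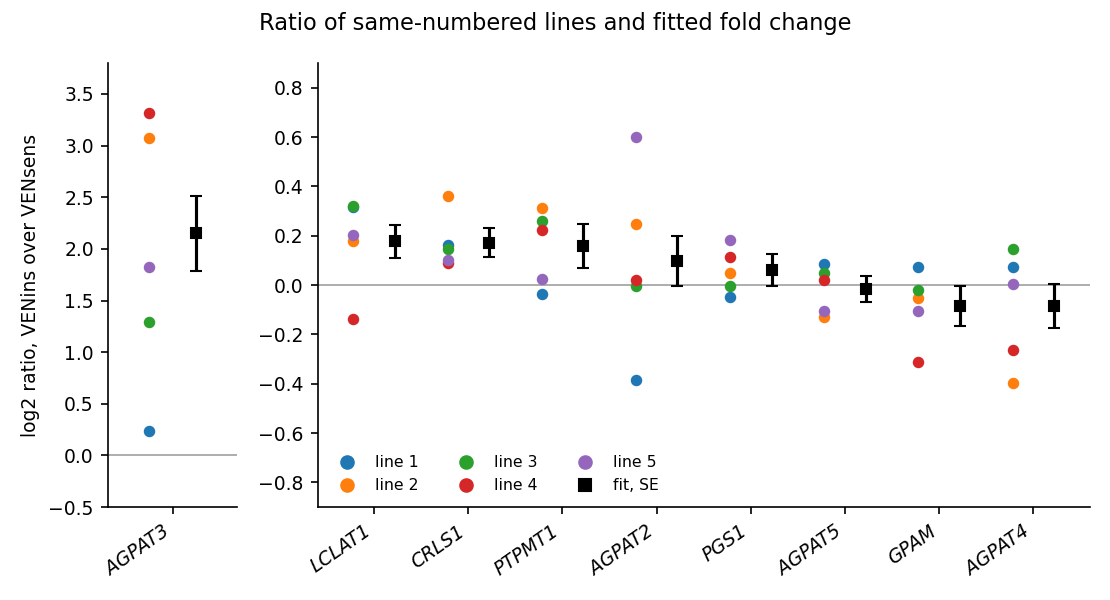
Log2 ratio of VENins over VENsens for lines of the same number (coloured points, from log2 CPM with a prior count of 2, which shrinks ratios of low counts) and the fitted log2 fold change with its SE (black squares), for AGPAT3 at left and the other 8 measured genes at right on a finer axis. On this scale AGPAT3 ranges from 0.23 in line 1 to 3.32 in line 4, although without the prior count the ratio is largest in line 2 (14.8, on 2 VENsens counts), while CRLS1 is the only gene at right with all 5 points above 0.

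The rest of the pathway was read from 7 lists with 69 genes outside the members, of which 60 were tested. None of the 60 was called by edgeR with the line number in the model, while at an unadjusted p under 0.05 there were 2 higher and 9 lower in VENins lines, against 7.79% and 8.38% of all tested genes. DESeq2 with the line number called 2 of them, DGKD and DGKH, beside 1.69% of all genes tested by that fit. Without overlap between the groups, 1 gene was higher (ETNK2) and 1 lower (DGKD), against 2.36% and 2.30% of all tested genes, so these counts were near the background. The median log2 fold change of the 60 genes was -0.03, beside 0.00348 for all genes tested.

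Among the diacylglycerol kinases and phospholipases, which form phosphatidic acid by other routes, 4 of 10 tested genes were lower at an unadjusted p under 0.05 and none was higher, against 8.38% lower and 7.79% higher of all tested genes. The list median was -0.11, but -0.05 with the trend on exon length removed and -0.22 without the lines numbered 4. DGKD, a diacylglycerol kinase, ranged from 343 to 358 CPM over VENsens lines and from 289 to 333 CPM over VENins lines. The log2 fold change was -0.22 (SE 0.05; edgeR adjusted p = 0.0843), lower in 5 of 5 lines. DGKH, a related kinase, ranged from 41.4 to 46.9 CPM over VENsens lines and from 28.6 to 42.0 CPM over VENins lines (log2 fold change -0.31, SE 0.08; edgeR adjusted p = 0.0918). DESeq2 with the line number called both kinases (adjusted p = 0.0129 and 0.0358), and edgeR without the line number, which called 0.889% of genes, called DGKD (adjusted p = 0.0423). Over the alternatives, adjusted p-values of DGKD lay between 0.00168 and 0.484 and those of DGKH between 0.00295 and 0.518, so that the side of the threshold depended on the fit while the direction was the same in each. DGKG, singled out after its values were seen, had a mean of 3.32 CPM for VENsens and 2.11 CPM for VENins lines, with overlapping groups. Its log2 ratios between lines of the same number, with a prior count of 2, were 0.12, -1.16, -0.64, 0.0045 and -1.91 for lines 1 to 5, so that it was lower in 3 of 5. The log2 fold change was -0.68 (SE 0.24; edgeR adjusted p = 0.181), and over the alternatives the adjusted p lay between 0.000766, with no filter on low counts, and 0.613. Without the lines numbered 5, where its ratio was lowest, the edgeR adjusted p of DGKG was 0.339.

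The list of phosphatidic acid use also held DGAT1 and DGAT2, which act on diacylglycerol. Of its 7 tested genes, 2 were lower at an unadjusted p under 0.05 and none was higher, against 8.38% and 7.79% of all tested genes. The list median of -0.07 turned to 0.04 without the lines numbered 4 and was -0.01 with the trend on exon length removed. The 2 genes were the phosphatidate phosphatases LPIN2 (log2 fold change -0.19, SE 0.05; edgeR adjusted p = 0.133) and LPIN1 (-0.14, SE 0.06; edgeR adjusted p = 0.245; -0.08 with the length trend removed). LPIN2 ranged from 96.3 to 106 CPM over VENsens lines and from 83.2 to 99.9 CPM over VENins lines. DESeq2 without the line number called it (adjusted p = 0.0308), and over the alternatives its adjusted p lay between 0.0308 and 0.561. TAMM41, which makes CDP-diacylglycerol in mitochondria, was at 7.20 ± 1.13 and 7.09 ± 0.593 CPM (log2 fold change -0.01, SE 0.11), and CDS2, its counterpart of the endoplasmic reticulum, was at 111 ± 9.63 and 104 ± 6.77 CPM. Both were named because they supply the step before PGS1, after their values were seen.

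Among 5 long-chain acyl-CoA synthetases, which supply the acyl chains, 1 was higher and 1 lower at an unadjusted p under 0.05, against 7.79% and 8.38% of all tested genes. Of these, ACSL6 had 1.23 ± 0.303 CPM in the VENsens group and 1.79 ± 0.264 CPM in the VENins group, higher in 5 of 5 lines (log2 fold change 0.55, SE 0.18; edgeR adjusted p = 0.158), on 19 to 51 counts per library. ACSL4, which prefers arachidonic acid, was at 96.5 ± 10.9 and 83.1 ± 5.28 CPM (log2 fold change -0.21, SE 0.08; edgeR adjusted p = 0.193). None of 6 tested genes of glycerol 3-phosphate supply and first acylation had an unadjusted p under 0.05, and the smallest p-values belonged to GNPAT (log2 fold change 0.09, SE 0.05) and GPD1 (0.26, SE 0.19; 0.15 without the lines numbered 2). The same was true of 7 tested lysophospholipid acyltransferases outside the AGPAT family, led by MBOAT1 (-0.24, SE 0.12) and LPCAT1 (0.09, SE 0.05).

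Among genes of cardiolipin remodelling, transport and breakdown, all 11 were tested and the list median was -0.01. Only PLD6, a mitochondrial phospholipase, had an unadjusted p under 0.05 (log2 fold change -0.13, SE 0.06; edgeR adjusted p = 0.280). Of all tested genes, 8.38% were lower and 7.79% higher by that rule, so this count was near the background. PLD6 was followed by STARD7 (-0.08, SE 0.05; -0.05 without the lines numbered 5), a lipid transfer protein. TAFAZZIN, the transacylase that remodels cardiolipin, was at 42.6 ± 3.57 and 44.1 ± 3.79 CPM (log2 fold change 0.05, SE 0.07) and was named for this role after its values were seen. In downstream phospholipid synthesis, 14 of 14 genes were tested, with a list median of 0.00. ETNK2, an ethanolamine kinase, ranged from 3.25 to 4.03 CPM over VENsens lines and from 4.37 to 5.84 CPM over VENins lines, higher in 5 of 5 lines (log2 fold change 0.47, SE 0.12; edgeR adjusted p = 0.0971, between 0.0122 and 0.484 over the alternatives). CEPT1, which makes phosphatidylcholine and phosphatidylethanolamine, had a log2 fold change of -0.15 (SE 0.06; edgeR adjusted p = 0.267), and -0.09 with the length trend removed.

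**Figure D4:**
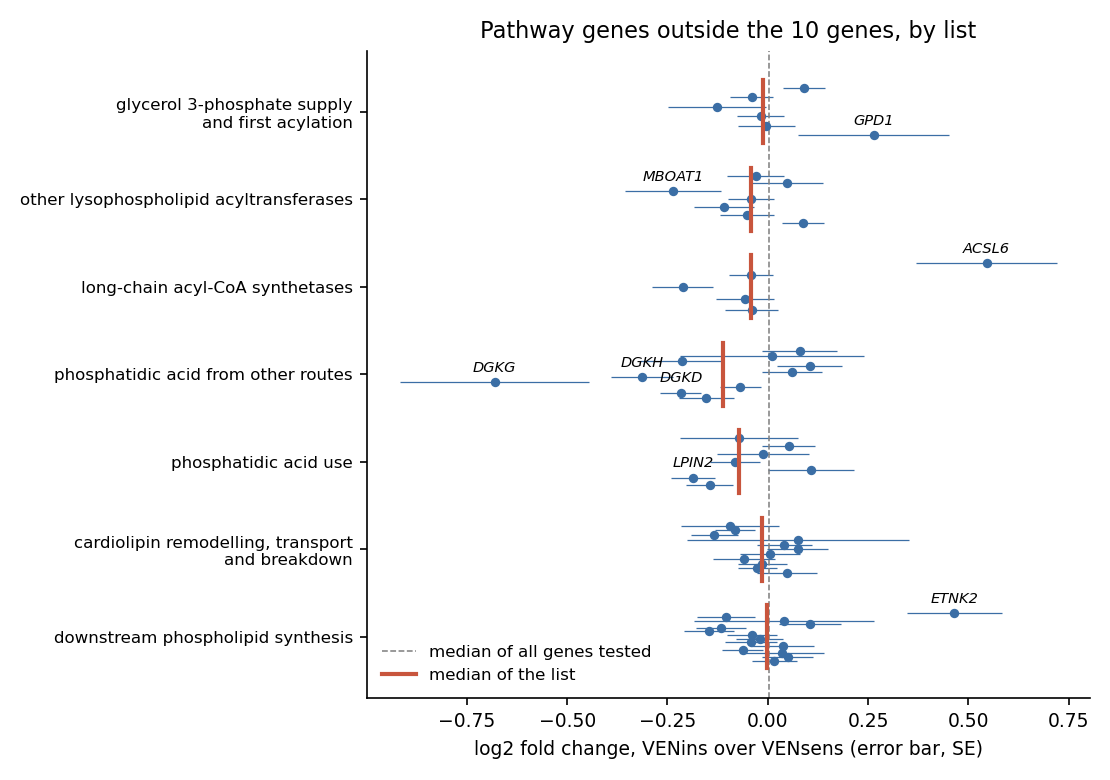
Log2 fold change of VENins over VENsens with its SE for the 60 tested pathway genes outside the members, grouped by list; red bars are list medians and the dashed line is the median of all tested genes. Medians lie between -0.11 and 0.00, and 8 of the genes described are labelled.

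Genes on either side of AGPAT3 on chromosome 21 were read to see whether the difference extended along the chromosome. Before it lie PDXK, CSTB and RRP1, and after it TRAPPC10, PWP2 and GATD3A, the nearest being TRAPPC10 at a distance of 25.8 kb. All 6 were tested and none was called by edgeR. Their log2 fold changes lay between 0.00 for TRAPPC10 and 0.19 (SE 0.07; edgeR adjusted p = 0.200) for CSTB, a protease inhibitor, and the groups overlapped for each of the 6. Their levels ranged from 22.4 ± 1.29 CPM for PDXK to 103 ± 5.75 CPM for GATD3A in VENsens lines, all well above that of AGPAT3. None of the 6 came near the log2 fold change of AGPAT3, which was picked for its rise and had the highest value of all tested genes. This contrast in size came with the choice, so it does not decide whether the difference extended along the chromosome. The 1 other annotated gene that overlaps AGPAT3 was at 0 counts in all libraries.

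**Figure D5:**
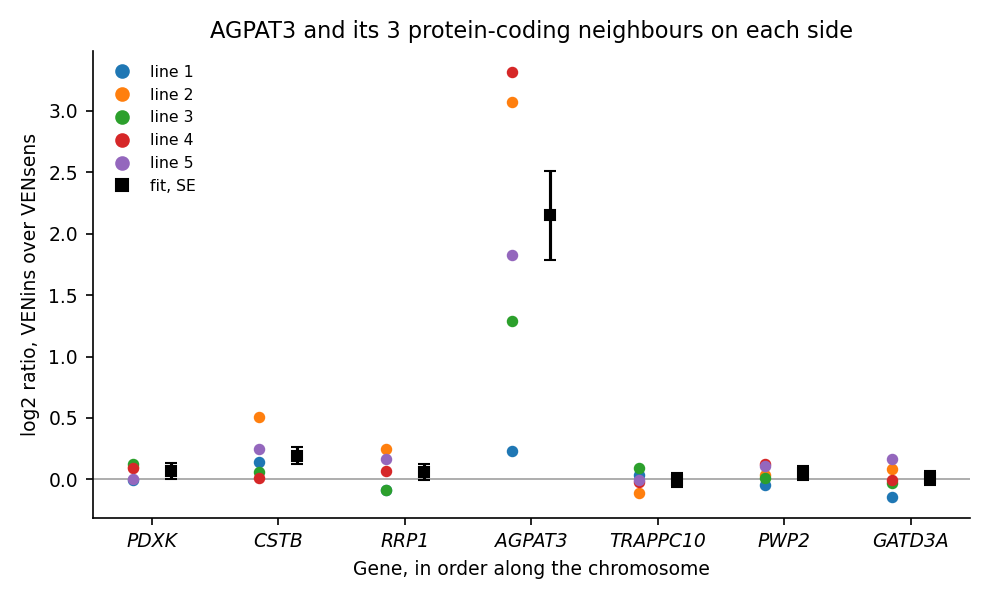
Log2 ratio of VENins over VENsens for lines of the same number (coloured points, from log2 CPM with a prior count of 2) and fitted log2 fold change with its SE (black squares) for AGPAT3 and the 3 protein-coding genes on each side, in order along the chromosome. The neighbours stay between -0.14 and 0.51 in all 5 lines, and AGPAT3 reaches 3.32 on this scale.

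The genes whose log2 CPM followed AGPAT3 most closely over the 10 libraries, among 11137 protein-coding genes with a mean of at least 1 CPM, were DMAC1 (Pearson r = 0.916, Spearman rho = 0.891), ABCB6 (0.911, 0.842), ENOPH1 (0.907, 0.855), C1QBP (0.904, 0.867) and MRPL27 (0.893, 0.915). These values describe 10 libraries that fall into the groups by which AGPAT3 was chosen, and the AGPAT3 counts are low, so they carry no test. Without VENins line 4 and VENsens line 2, the libraries farthest from the median of AGPAT3, r lay between 0.697 for ENOPH1 and 0.901 for MRPL27 over the remaining 8. Their own differences were small, with log2 fold changes from 0.15 to 0.21 and no call by edgeR. Of the other members, PTPMT1 had the highest r with AGPAT3 (0.800, place 89 among these genes) and AGPAT4 the lowest (-0.65).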

How the data were processed

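The authors deposited, for each of the 10 RS4;11 libraries, raw counts of reads per Ensembl gene; the submitters' processing notes name bcl2fastq 2.20.0.422, Bowtie2 2.3.5.1, SAMtools 1.9 and HTSeq 0.9.1 with the build hg19 (GRCh37). The annotation release and the strand setting are not given in the sources used here. Gene counts were 52.7% to 54.2% of reads; the shares outside genes (7.29% to 7.78%), ambiguous (3.69% to 3.98%), of low alignment quality (24.6% to 26.2%) and not aligned (9.39% to 10.2%) were left out. Multiply aligned reads are thus missing from the counts, which lowers genes with near-identical copies.

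Names, positions and lengths came from GENCODE 29 (GRCh38) by gene identifier (52526 of 63677 matched). In R 4.3.3, edgeR 4.0.16 was used with filterByExpr (minimum count 10, total 15), TMM, and the quasi-likelihood F test with line number and condition; p-values were adjusted by Benjamini-Hochberg over all tested genes (threshold 0.05). CPM use TMM-scaled library sizes, log2 CPM a prior count of 2, and SEs come from the F statistic. DESeq2 1.42.0 was an alternative, beside no line number, RLE factors, library size alone, other filters, removal of the trend on exon length (natural spline, 4 degrees of freedom) and leaving out each line number. Python 3.11.15 with pandas 2.3.3, scipy 1.17.1 and matplotlib 3.10.9 served for tables and plots. The steps were tested on simulated data.

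Groups come from the sample titles. Lines of a group differed beyond counting error in all 20 pairs (chi-square over degrees of freedom 1.92 to 14.2, highest for the pairs of VENins line 5), and each counts as a replicate. The members and lists were chosen with earlier results of these data known. Named are the 10 members; from each list the called genes, otherwise the 2 with the smallest p; the 5 genes most like AGPAT3 by Pearson correlation; and its 3 protein-coding neighbours on each side. TRAC, a T cell marker, was not found by name. Of the marker lists, 2 genes are not reported here by name.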

Additional observations from a re-analysis of the deposited data

Results flagged for a closer look

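In 6 of 70 groups of 5 lines examined, the highest or lowest line was far from the others, measured as its gap to the next line over the range of the group; chance gives about 1 in 20. AGPAT3 in VENins lines had a gap of 0.715, with line 4 at 5.07 CPM and the others at 0.846 to 2.05 CPM. AGPAT2 in VENins lines had a gap of 0.739, with line 5 at 73.6 CPM and the others at 45.9 to 53.1 CPM, and the summed acyltransferase family in the same lines, of which AGPAT2 is a part, had a gap of 0.775 with a highest value of 91.2 CPM per kb. RRP1 in VENsens lines had a gap of 0.791, with line 2 at 51.7 CPM against 61.3 to 63.9 CPM. MRPL27 had a gap of 0.883 in the same group and also in line 2, at 30.3 CPM against 36.4 to 37.2 CPM. GATD3A in VENins lines had a gap of 0.794, with line 5 at 109.7 CPM against 101.2 to 102.9 CPM. VENins line 5, the highest for AGPAT2, the summed family and GATD3A, also stood apart over all genes, with a chi-square over degrees of freedom of 13.2 to 14.2 in its pairs. Why these lines stood apart was not tested.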

How the results depend on the processing

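Against 33 genes called, there were 149 with no replicate block for the line number, 217 by DESeq2 with it, 739 by DESeq2 without it, 664 with no filter on low counts and 50 with the exon length trend removed; leaving out each line number gave 6 (without 2) to 331 (without 4). Same-numbered lines deviated together no more than others (correlation -0.10 to 0.03 for the 5 paired numbers; 0 of 5 VENsens lines were closest to their own number), so the numbers pair the lines by name only. Of the members other than AGPAT3, 0 were called by each fit but DESeq2 without the line number, which called 1 (CRLS1). Pathway genes called went from 0 to 1 with no replicate block (DGKD), 2 by DESeq2 with the block, 4 by DESeq2 without it and 4 with no filter on low counts; leaving out line numbers gave 0 to 1 (DGKH, without 4). Log2 fold changes that turned were AGPAT2 without line number 5 (-0.031; range over numbers left out -0.031 to 0.217) and AGPAT5 without number 2 (0.0119) or 5 (0.00662; range -0.0412 to 0.0119). AGPAT3 lay between 1.63 and 2.65 and had no value with at least 10 counts in every library. Over the alternatives, 12 values of CRLS1, DGKD, DGKH, LPIN2 and ETNK2 passed the threshold, and DGKG, named outside the rule, passed it with no filter on low counts (adjusted p = 0.000766). Of the members and the pathway genes named by the rule, no values other than these 3 turned. Of the list medians, 10 values changed sign, 9 of them within the spread between lines. Beyond it lay 4 values of 2 lists, those of phosphatidic acid from other routes (-0.05 with the length trend removed, -0.22 without number 4) and of its use (-0.01, and 0.04, which is a change of sign). Members kept 18 of 18 ranks per kilobase with library size alone and 14 with the longest transcript. For each of these the cause was not tested. Depth limits AGPAT3, whose 302 counts over 10 libraries include a library with 2.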
